A study of Mus musculus with 45 samples.

Results

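The genes described here are 32 genes of protein folding, quality control and stress sensing in the endoplasmic reticulum (ER), chosen by name from this pathway. They are 5 chaperones (Hspa5, Hsp90b1, Hyou1, Calr and Canx), 5 co-chaperones or their partners (Dnajb9, Dnajb11, Dnajc3, Dnajc10 and Sdf2l1), 2 ER proteins that can be secreted (Manf and Creld2) and 4 disulfide isomerases (Pdia3, Pdia4, Pdia6 and P4hb). A further 9 belong to ER-associated degradation, or ERAD (Derl1, Derl2, Derl3, Edem1, Edem2, Edem3, Herpud1, Sel1l and Syvn1), 4 are stress sensors or their factors (Xbp1, Atf6, Ern1 and Eif2ak3), 2 act at the translocon (Sec61b and Ssr1), and Wfs1 encodes an ER membrane protein of beta cells. All 32 were present among the 22904 genes of the deposited matrix, and all 32 passed the filter on low counts, the lowest estimated count of any of them in a library being 541.

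Secreted proteins such as proinsulin enter the ER through the translocon, and chaperones, their J-domain partners and the disulfide isomerases help them fold. Chains that fail to fold are recognised by EDEM proteins, moved back to the cytosol through a membrane complex of the HRD1 ligase, SEL1L, HERPUD1 and the derlins, and degraded. When unfolded proteins accumulate, the sensors IRE1 (gene Ern1), PERK (gene Eif2ak3) and ATF6 start the unfolded protein response, in which spliced XBP1 and cleaved ATF6 raise transcription of folding and ERAD genes, while PERK slows translation and induces ATF4. Beta cells carry a large secretory load, and mutations of EIF2AK3 or WFS1 cause forms of diabetes in humans.

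The libraries are bulk polyadenylated RNA of pancreatic islets from wild-type mice of 3 inbred strains: C57BL/6J, a common laboratory strain, CAST/EiJ, a wild-derived strain, and NZO/HlLtJ, an obese strain prone to diabetes. Females (F) and males (M) of each strain were fed, from 6 weeks of age, either 10% fat as control or 44% fat with high sugar; each diet held fiber, and tissue was taken at 16 weeks. The 12 groups held 4 libraries each, except for 3 libraries of CAST/EiJ males on 10% fat and 3 of NZO/HlLtJ males on either diet. Whether the 45 libraries stem from 45 different animals is not stated in the labels, and p-values therefore measure only the spread among libraries, which may be technical.

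Library totals ran from 57.2 to 110 M estimated counts. Levels are given as CPM, the counts per 1000000 counts of a library after scaling for its composition, and differences as log2 fold changes from the quasi-likelihood test of edgeR, with Benjamini-Hochberg adjustment over 20306 genes and a call at an adjusted p under 0.05. The beta cell markers held 4.76 to 17.4% of the counts and the alpha cell markers 0.724 to 7.49%, so that the islet markers were present in all libraries, and the acinar markers of the exocrine pancreas 0.0686 to 42.7%. The highest acinar share was in replicate 4 of the CAST/EiJ females on 10% fat. In 5 libraries, a median over 8 or 9 marker genes of another strain stood at 2.01 to 10.5% of that strain's level, against at most 0.736% in the others. These were replicates 1, 2 and 4 of the CAST/EiJ females on 44% fat, replicate 2 of the C57BL/6J females on 44% fat and replicate 3 of the NZO/HlLtJ males on 44% fat.

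The 44% fat diet went with higher levels of the folding genes in NZO/HlLtJ females. Of the 32 genes, 18 rose and 0 fell, where 9.37% of all genes tested rose and 7.83% fell. The median difference over the 32 genes was 0.60, against -0.005 over all genes. All 4 disulfide isomerases, both secreted proteins, 4 of 5 chaperones and 4 of 5 co-chaperones were among the 18, as were Derl3, Edem1 and Edem2 of ERAD and Sec61b of the translocon. None of the 4 sensors or factors and not Wfs1 passed the test. In NZO/HlLtJ males 0 rose and 3 fell (Canx, Atf6 and Wfs1), where 17% of all genes rose and 15.1% fell, and the median was -0.31. The difference between the male and the female diet effect was itself called for 16 genes, all with the smaller value in males, where 4.42% of all genes had the larger and 5.58% the smaller value in males. In bulk RNA, fewer cells of a type and less RNA per cell cannot be told apart.

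**Figure D1:**
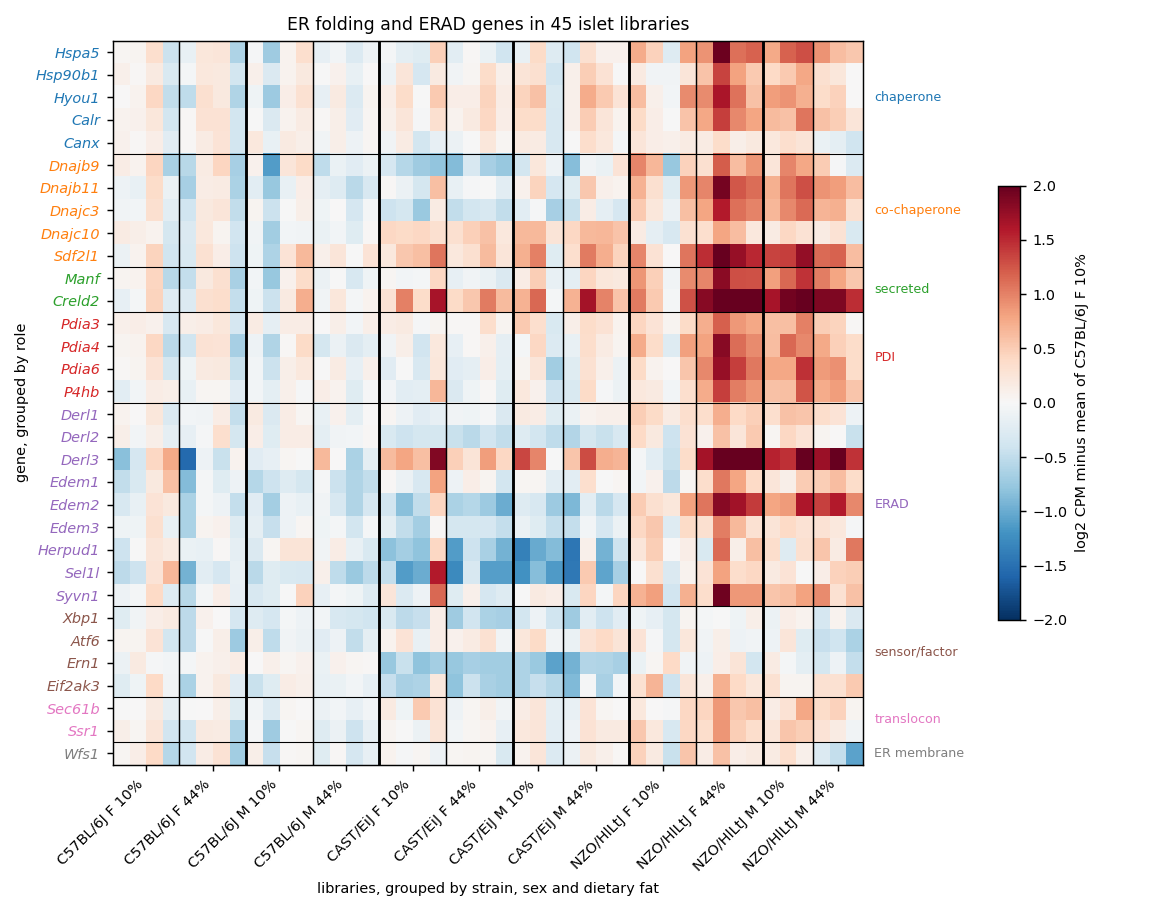
Levels of the 32 genes (rows, by role) in the 45 libraries (columns, by strain, sex and dietary fat), as log2 CPM minus the mean of the C57BL/6J females on 10% fat; the colour scale is cut at -2 and 2. The red block lies in the NZO/HlLtJ libraries, with the darkest column in replicate 2 of the females on 44% fat, while the rows of Xbp1 and Ern1 are pale in NZO/HlLtJ and the Ern1 row is blue in CAST/EiJ.

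The promoter of a folding gene often carries the ER stress response element, a CCAAT box and a CCACG box held 9 bases apart, at which NF-Y and ATF6 are known to bind. The windows of RefSeq on GRCm38.p6, from 250 bases before to 50 bases after a gene's start, were searched on both strands for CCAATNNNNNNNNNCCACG. A window was found for 28 of the 32 genes; none was found for Hyou1, Derl1, Atf6 and Manf. The element was present for 9 of the 28 genes (32.1%), against 39 of 32851 windows of all genes (0.119%). Among the genes with a window, it was present for 7 of the 16 that rose in NZO/HlLtJ females and for 2 of the 12 that were not called. The 7 are shown first, with up to 30 bases on either side and the boxes in capitals (CGTGG and ATTGG where the element lies on the other strand).
Hspa5, chr2:34771995-34772073, plus strand: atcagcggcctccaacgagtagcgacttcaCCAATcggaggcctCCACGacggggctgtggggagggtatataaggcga
Hsp90b1, chr10:86705503-86705686, minus strand, 2 elements: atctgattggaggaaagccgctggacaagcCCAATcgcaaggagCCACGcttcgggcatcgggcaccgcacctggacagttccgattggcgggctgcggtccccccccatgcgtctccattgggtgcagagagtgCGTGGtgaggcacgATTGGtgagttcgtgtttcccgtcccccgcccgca
Calr, chr8:84847045-84847123, minus strand: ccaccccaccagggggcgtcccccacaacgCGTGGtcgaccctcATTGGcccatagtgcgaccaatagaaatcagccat
Dnajc3, chr14:118937797-118937875, plus strand: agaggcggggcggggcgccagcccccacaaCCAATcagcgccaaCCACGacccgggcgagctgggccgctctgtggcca
Creld2, chr15:88819490-88819568, plus strand: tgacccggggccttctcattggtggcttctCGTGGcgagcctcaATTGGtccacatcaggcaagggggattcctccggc
Pdia6, chr12:17266461-17266539, plus strand: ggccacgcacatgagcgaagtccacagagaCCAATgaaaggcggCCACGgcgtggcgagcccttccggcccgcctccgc
Derl3, chr10:75893212-75893290, plus strand: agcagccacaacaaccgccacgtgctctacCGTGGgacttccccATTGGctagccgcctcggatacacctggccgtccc
The 2 genes with the element that were not called follow, and Herpud1 shows the second type of element, ATTGG and CCACG held 1 base apart, with all its letters in capitals.
Canx, chr11:50325770-50325848, minus strand: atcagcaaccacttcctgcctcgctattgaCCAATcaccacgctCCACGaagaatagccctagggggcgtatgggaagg
Syvn1, chr19:6046502-6046575, plus strand: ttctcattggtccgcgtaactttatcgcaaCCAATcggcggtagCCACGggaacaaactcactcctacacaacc
Herpud1, chr8:94386347-94386417, plus strand: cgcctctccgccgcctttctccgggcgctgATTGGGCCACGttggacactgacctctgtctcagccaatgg
The second type was found for Herpud1 and, 8 bases after the start, for Dnajb11, against 0.0365% of all windows. The XBP1-type core TGACGTG was found for Hspa5 alone, against 2.01% of all windows, and the plain CCAAT box, which the element contains, for 78.6% of the 28 genes against 37.4% of all windows. A match describes the letters of a window and does not show that a factor binds there.

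Hspa5 (ENSMUSG00000026864, chromosome 2) encodes BiP, the ER member of the HSP70 family, which also holds the sensors inactive. Its level in the NZO/HlLtJ females on 10% fat was 2690, 2210, 1350 and 2830 CPM, and in those on 44% fat 3020, 6260, 3460 and 3640 CPM. The groups did not overlap, and the 44% group spread widely because replicate 2 stood far above the other 3. The fitted difference was 0.85 (SE 0.23, adjusted p = 0.00893). Males on 10% fat had 2730, 3650 and 3930 CPM and males on 44% fat 3000, 2470 and 2350 CPM, so that the male groups overlapped and the difference of -0.40 was not called (SE 0.27, adjusted p = 0.261). The diet difference in males was smaller than in females by -1.25 (SE 0.35, adjusted p = 0.0199). Without replicate 2 of the females on 44% fat the female difference was 0.57 (adjusted p = 0.0931), and without replicate 3 of those on 10% fat it was 0.67 (adjusted p = 0.0567), so the call for Hspa5 rested on each of these libraries. It was also lost in a fit of the NZO/HlLtJ libraries alone (0.83, adjusted p = 0.0599).

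Hsp90b1, the ER paralogue of HSP90, had 1740, 1470, 1470 and 1810 CPM in females on 10% fat and 2290, 3910, 2670 and 2210 CPM in those on 44% fat. It rose by 0.77, and here the call held without replicate 2 (0.56, adjusted p = 0.0198). In males it went from 2020, 2200 and 2630 to 1910, 1800 and 1550 CPM, groups that did not overlap but whose difference of -0.38 was not called (adjusted p = 0.131). Hyou1, a large HSP70 relative that exchanges the nucleotide of BiP, rose by 0.65 in females with an adjusted p of 0.0494, at the edge of the threshold, and its female groups overlapped: 1470, 1030, 925 and 1850 against 1850, 2970, 2040 and 1430 CPM. Calr, encoding the lectin chaperone calreticulin, rose by 0.71 (SE 0.16, adjusted p = 0.00234). Its membrane-bound relative calnexin (Canx) did not: 783, 725, 707 and 739 CPM on 10% fat stood against 739, 856, 714 and 754 CPM on 44% fat, a difference of 0.05 with a 95% interval of -0.19 to 0.29. Canx fell in males by 0.51, from 762, 832 and 794 to 601, 579 and 501 CPM (SE 0.14, adjusted p = 0.00555), and Canx and Calr both carry the ER stress response element shown above.

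Among the co-chaperones, Sdf2l1, a partner of BiP and the J protein ERdj3, changed most. It went from 138, 85.6, 70.3 and 147 CPM to 195, 375, 234 and 199 CPM in females, with no overlap, a rise of 1.19 (SE 0.27, adjusted p = 0.00194). Males on 10% fat had 178, 182 and 235 CPM and males on 44% fat 153, 159 and 107 CPM. The male groups did not overlap either, with the 44% group lower, and this difference of -0.51 was not called (adjusted p = 0.207). Dnajc3, encoding the J protein P58IPK that restrains PERK, rose by 0.81 in females, from 632, 513, 403 and 667 to 757, 1320, 938 and 870 CPM (adjusted p = 0.00274). Dnajb11, encoding ERdj3, rose by 0.89, and Dnajc10, a J protein with reductase activity, by 0.50. Dnajb9, encoding the IRE1 repressor ERdj4, ran from 156 to 517 CPM in the females on 10% fat and from 328 to 609 CPM in those on 44% fat, and was not called (0.33, adjusted p = 0.481).

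Creld2, an ER stress-inducible protein that can leave the cell, was at 132, 92.5, 62.7 and 155 CPM in females on 10% fat and at 227, 573, 335 and 262 CPM in those on 44% fat. Its groups did not overlap, and it rose by 1.66, or 3.16-fold (SE 0.32, adjusted p = 0.000486). In males the values were 200, 243 and 325 CPM on 10% fat and 233, 235 and 179 CPM on 44% fat, with a difference of -0.25 and a 95% interval of -0.95 to 0.46. Manf, a secreted factor that protects cells under ER stress, rose by 0.75 in females (adjusted p = 0.0183). The diet effects of both genes differed between the sexes, by -1.91 for Creld2 and -1.11 for Manf.

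The disulfide isomerases, which form and rearrange disulfide bonds in proteins such as proinsulin, rose together in females. Pdia6, which also acts on IRE1, went from 672, 539, 520 and 757 CPM to 1000, 1730, 1340 and 1070 CPM, a rise of 1.05 (SE 0.20, adjusted p = 0.000279) with no overlap. P4hb, the classical isomerase PDI, rose by 0.86, Pdia4 by 0.75, and Pdia3, which works with calnexin and calreticulin, by 0.61. In males none of the 4 was called, and their differences ran from -0.41 to -0.14. All 4 were called for the difference between the sexes, from -1.36 for Pdia6 to -1.0 for P4hb.

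Derl3 (ENSMUSG00000009092, chromosome 10), a derlin of the retrotranslocation complex that is best known from secretory cells, had the widest range of the 32 genes. Females on 10% fat had 13.7, 12.2, 10.3 and 18.2 CPM, and females on 44% fat 44.8, 101, 74.2 and 66.5 CPM. The lowest value on 44% fat was above the highest on 10% fat, and Derl3 rose by 2.40, or 5.27-fold (SE 0.36, adjusted p = 2.77e-05). Males had 40.9, 39 and 72.1 CPM on 10% fat and 45.9, 59.4 and 38.3 CPM on 44% fat, a difference of -0.08 (95% interval -0.85 to 0.69). The males on either diet thus stood above all females on 10% fat, and the sexes differed in their diet effect by -2.48 (SE 0.53, adjusted p = 0.00375).

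**Figure D2:**
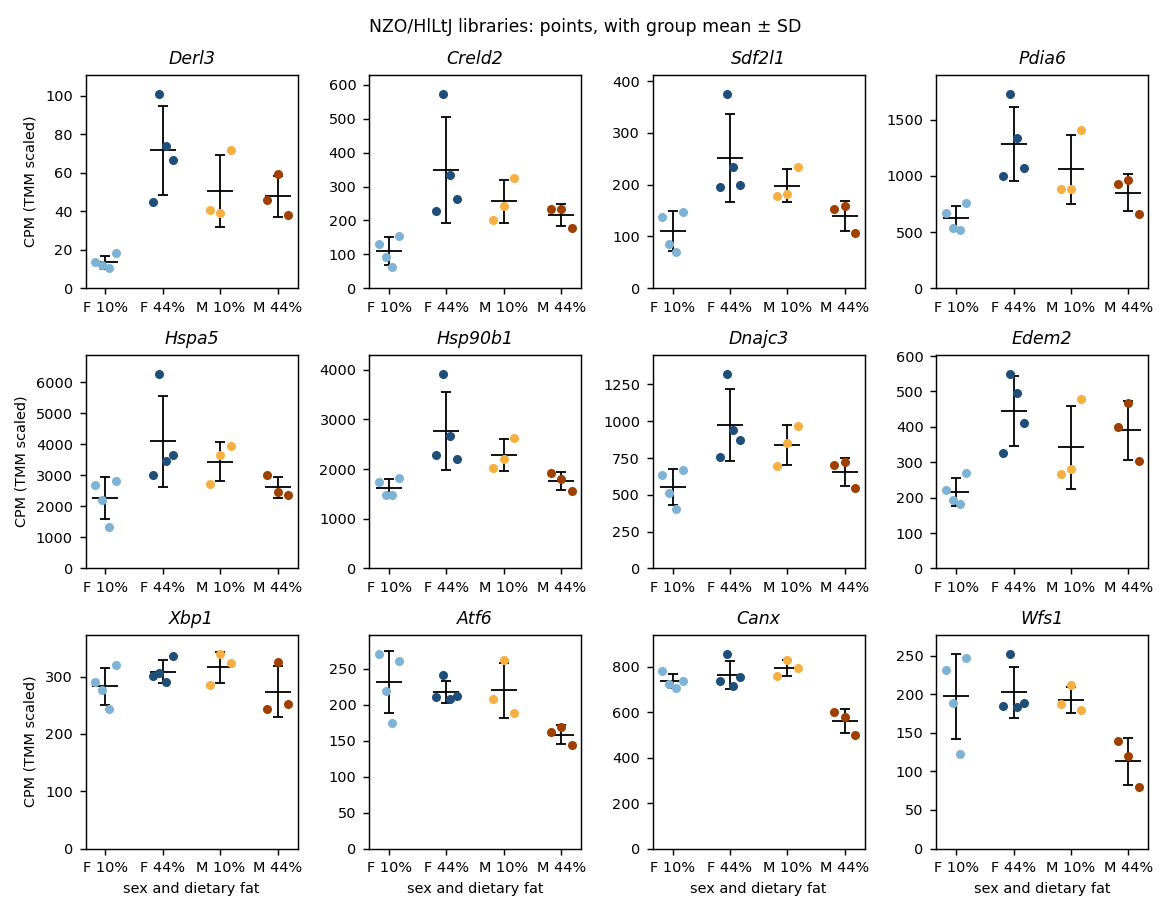
CPM of 12 genes in the NZO/HlLtJ libraries by sex and dietary fat, with points for libraries and bars for the group mean ± SD; every vertical axis starts at 0. In the upper 2 rows the females on 44% fat stand above those on 10% fat, as with Derl3 at 44.8 to 101 against 10.3 to 18.2 CPM, while Atf6, Canx and Wfs1 in the lowest row are low in the males on 44% fat.

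The other ERAD genes moved less evenly. Edem2, which starts mannose trimming of misfolded glycoproteins, rose by 1.04 in females, from 221, 194, 182 and 270 to 325, 549, 495 and 411 CPM (SE 0.22, adjusted p = 0.000993). Edem1, a mannosidase-like protein of the same family, rose by 0.77. Edem3, the third of the family, ran from 127 to 220 CPM on 10% fat and from 188 to 308 CPM on 44% fat and was not called (adjusted p = 0.188). The ligase gene Syvn1 (HRD1) had a difference of 0.60, its scaffold Sel1l of 0.43 and Herpud1, which recruits HRD1, of 0.25, and none of these passed the test (adjusted p = 0.125, 0.482 and 0.565). Their SEs of 0.27 to 0.39 were larger than the 0.12 and 0.14 of Derl1 and Derl2, which differed by 0.15 and 0.23 and were not called either. No ERAD gene was called for diet in males.

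The sensors and factors had small differences in NZO/HlLtJ females. Xbp1, whose spliced form is the transcription factor of the IRE1 branch, had 290, 277, 243 and 321 CPM on 10% fat and 301, 307, 291 and 336 CPM on 44% fat, overlapping groups with a difference of 0.13 (95% interval -0.14 to 0.39). Splicing cannot be read from gene-level counts. Ern1, encoding IRE1, had 218, 245, 317 and 227 against 224, 261, 286 and 186 CPM, a difference of -0.08 (-0.30 to 0.15). Eif2ak3, encoding PERK, had 105, 135, 63.8 and 99.6 against 91, 138, 111 and 99.3 CPM, a difference of 0.12 (-0.27 to 0.51). The differences of Derl3 and Creld2, the largest rises, lie outside these intervals. Those of Sec61b and Dnajc10, which were also called, lie within the interval of Eif2ak3. No test between genes was made. Atf6, encoding the membrane-bound factor ATF6, had 270, 219, 175 and 260 against 211, 241, 208 and 212 CPM in females, a difference of -0.08 (-0.39 to 0.23). In males it fell by 0.47, from 208, 262 and 189 to 162, 169 and 144 CPM (adjusted p = 0.0452).

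Wfs1, encoding wolframin, an ER membrane protein abundant in beta cells, had 231, 189, 123 and 247 CPM in females on 10% fat and 185, 252, 184 and 189 CPM in those on 44% fat, a difference of 0.04 (95% interval -0.34 to 0.42). In males it fell by 0.77, from 187, 212 and 180 to 139, 120 and 80 CPM, with no overlap (SE 0.22, adjusted p = 0.00805). The beta cell markers moved in the same groups: 11 of the 12 markers fell in males, with a median of -1.30, and the summed level went from 140000 to 188000 CPM on 10% fat to 55300 to 113000 CPM on 44% fat. In females 2 of the 12 rose and 2 fell, and the summed level was 106000 to 140000 CPM on 10% fat and 131000 to 185000 CPM on 44% fat. The part of these markers in the fall of Wfs1, Canx and Atf6 was not tested. Sec61b, a subunit of the translocon, rose by 0.46 in females, and Ssr1, of the translocon-associated complex, had 0.29 and was not called (adjusted p = 0.0123 and 0.248).

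**Figure D3:**
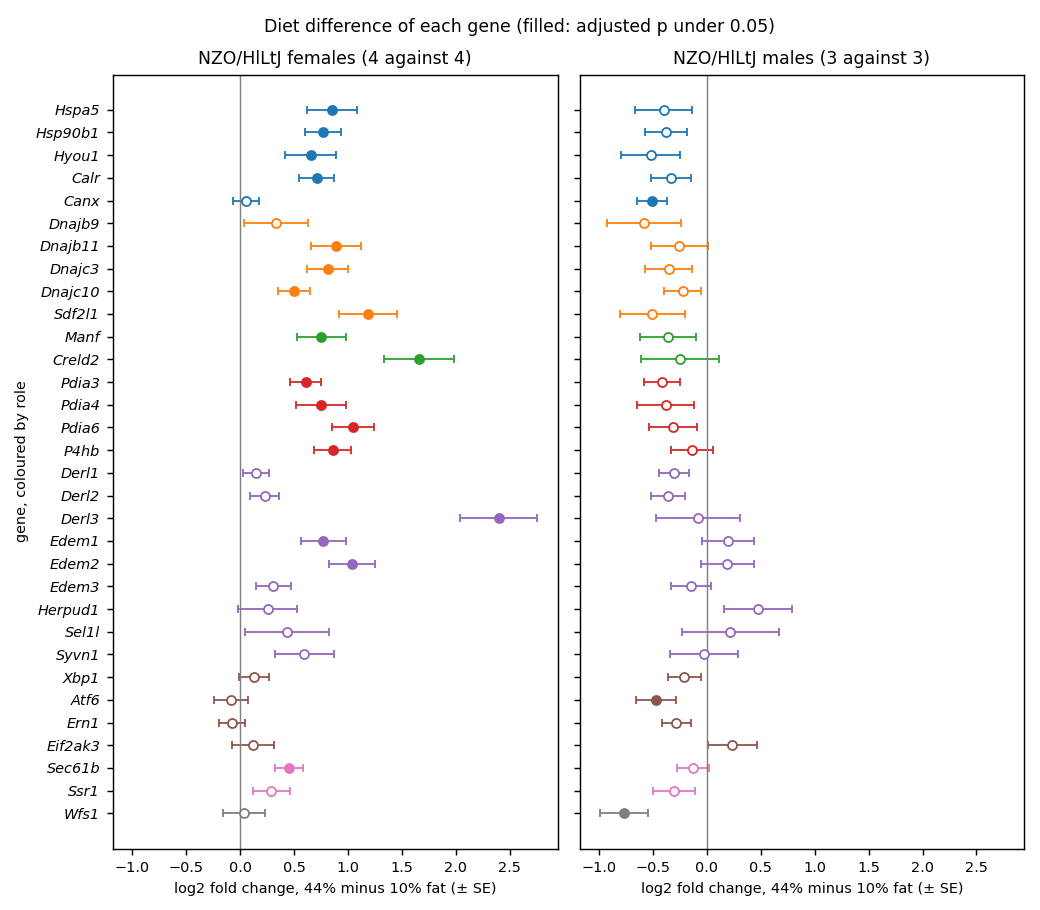
Diet difference of each gene, as log2 fold change of 44% minus 10% fat ± SE, in NZO/HlLtJ females (left) and males (right), coloured by role and filled where the adjusted p was under 0.05. In females 18 points are filled, all right of 0 with Derl3 at 2.40, and in males 3 are filled, all left of 0.

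The 3 falls in males rested on replicate 3 of the males on 44% fat, the library with transcripts of another strain. It was the lowest of its group for 27 of the 32 genes and had the highest acinar share of the NZO/HlLtJ libraries, 19% of its counts. Without it 0 of the 32 genes were called for diet in males: Canx then differed by -0.43 (adjusted p = 0.0565), Wfs1 by -0.57 (0.104) and Atf6 by -0.41 (0.184). The difference between the sexes was then called for 4 genes in place of 16, namely Derl3 (-2.34, adjusted p = 0.0322), Pdia6, Pdia3 and Hsp90b1. Without all 5 libraries that held transcripts of another strain it was called for 0, with Derl3 at -2.34 (adjusted p = 0.052), Hsp90b1 at -1.06 (0.0504) and Pdia6 at -1.20 (0.0557). In a fit of the NZO/HlLtJ libraries alone, Derl3 was the 1 gene called (-2.48, adjusted p = 0.0356). Calls became rare for all genes in both fits. With all libraries 897 genes had the larger and 1133 the smaller value in males. Without the 5 libraries these counts were 106 and 107, and in NZO/HlLtJ alone 69 and 62. The median of the 32 genes was -0.83 with all libraries, -0.65 without the 5 and -0.82 in NZO/HlLtJ alone.

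In females, 2 libraries set much of the size. Replicate 2 on 44% fat was the highest of its group for 30 of the 32 genes and replicate 3 on 10% fat the lowest for 31. The summed level of the 32 genes was 20200, 33700, 23600 and 21600 CPM on 44% fat and 17200, 14800, 11900 and 18100 CPM on 10% fat. Without the first library 10 genes were called, without the second 11 of the 18 kept their call, and without both, a setting added after their values were seen, 5 were called: Derl3 (2.07, adjusted p = 0.00192), Creld2 (1.12), Edem2 (0.84), Pdia6 (0.79) and P4hb (0.65). With scaling by library totals alone, 8 genes were called, and in a fit of the NZO/HlLtJ libraries alone, 12. The sensors and Wfs1 were among the genes not called in each of these fits.

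The sample codes of the labels begin with 76, 80 or 89, a number series the labels do not explain, and in NZO/HlLtJ it is partly confounded with diet within each sex. Series 76 alone held both diets of both sexes, with 2 libraries a diet in females and 1 in males. Within it, 29 of the 32 genes were higher and 3 lower in females, with a median of 0.60. Its females on 44% fat were replicates 1 and 2, and replicate 2 was the highest of its group for 30 of the 32 genes. For Hspa5 the values were 3020 and 6260 CPM on 44% fat and 2690 and 2210 CPM on 10% fat. The libraries of series 76 are part of the full fit, so the values of the 18 genes called there, from 0.54 to 2.38, are a description and no separate support. In males, the 3 genes called differed by -0.42 to -0.34, and over all 32 genes 19 were higher, 11 were lower and the median was 0.02, where the pooled median was -0.31. With the series as a factor in the fit, its effect shared by all strains, 18 genes rose in females and 9 fell in males. Over all genes, 1770 rose in females and 3697 fell in males. The diet effect was then called smaller in males for 19 of the 32 genes, and for 1781 of all genes.

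Cells of other types that make secreted proteins also use these genes. The 22 acinar markers held 2.04 to 9.34% of the counts in NZO/HlLtJ females on 10% fat and 3.80 to 9.87% in those on 44% fat, and 4.79 to 6.25% and 9.30 to 19% in males. None of the 22 was called for diet in either sex, with medians of 0.86 in females and 1.42 in males. Replicate 2 of the females on 44% fat, with the highest levels of the 32 genes, had the lowest acinar share of its group, 3.80%. This is 1 library. With an acinar score as a covariate, its slope shared by all strains, 17 genes were called in females. The plasma cell markers summed to 9.63 to 20.7 CPM and 20.1 to 56.4 CPM in females on 10% and 44% fat, and to 10.2 to 34.5 and 87.1 to 314 CPM in males. Of the 9 tested, 0 were called in females (median 1.86) and 6 rose in males (median 3.49), and Igha, Iglc2 and Pou2af1 had a count of 0 in at least 1 NZO/HlLtJ library. All 10 macrophage markers rose in both sexes, and 5 and 9 of the 9 fibroblast and stellate markers rose in females and males. Of the 7 duct markers 4 rose in females (median 1.43) and 5 in males (median 1.90), and of the 6 endothelial markers 0 and 4 rose. In females 2 of 6 alpha cell markers rose and 3 fell, and 3 of 5 delta cell markers fell, while in males 2 of each list rose and 0 fell. The part of acinar cells and of these other cell types in the differences of the 32 genes was not tested.

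**Figure D4:**
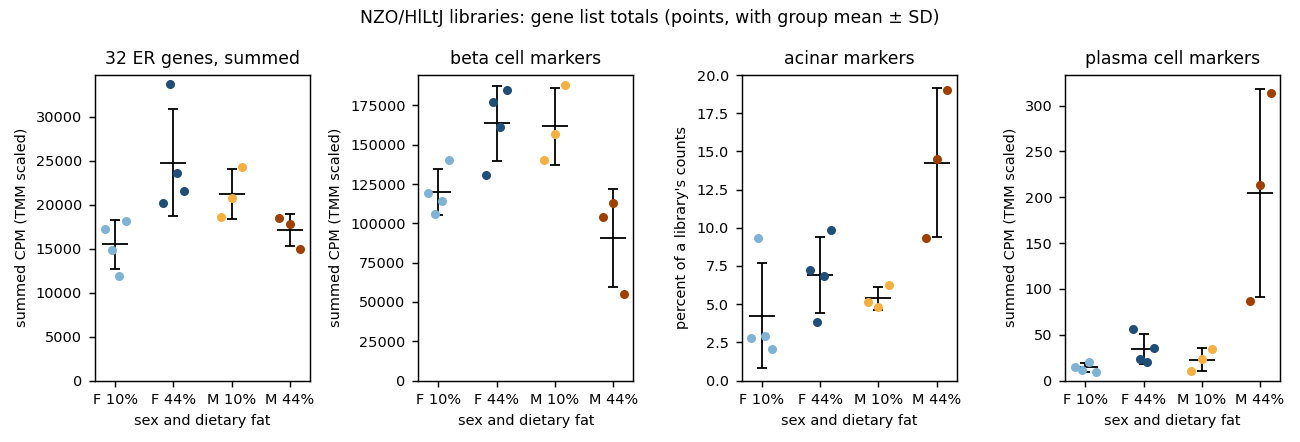
Summed level of the 32 ER genes, of the beta cell markers and of the plasma cell markers (CPM), and the acinar markers' percent of a library's counts, in each NZO/HlLtJ library by sex and dietary fat, with the group mean ± SD. The 32 genes are highest in females on 44% fat (20200 to 33700 CPM), whereas the acinar and plasma cell lists are highest in males on 44% fat, where the beta cell markers are lowest.

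Other genes of the secretory pathway were taken from 5 lists that do not hold the 32, and their counts in NZO/HlLtJ females stand against 9.37% of all genes that rose. Of 15 genes of the translocon and signal peptidase 10 rose and 0 fell, among them Sec11c, the signal peptidase catalytic subunit, by 1.28 and Ssr4 by 1.03. Of 15 genes of N-glycosylation and glycoprotein folding 11 rose, among them Dad1, a subunit of the oligosaccharyltransferase, by 0.90 and Prkcsh, the beta subunit of glucosidase II, by 0.89. Of 15 further foldases 6 rose, led by Fkbp11 (1.48) and Fkbp2 (0.84), both ER prolyl isomerases, and of 16 further ERAD genes 3 rose (Ngly1, Rnf5 and Aup1, by 0.45 to 0.38). Of 15 other regulators of the stress response 2 rose, the BiP exchange factor Sil1 and the membrane-bound factor Creb3, a share near that of all genes. The medians of the 5 lists in females were 0.51, 0.62, 0.52, 0.23 and 0.06, against -0.005 over all genes. In males 0 genes of the N-glycosylation list were called, and 3 each of the translocon, foldase and ERAD lists fell, not far from the 15.1% of all genes, including the oxidase gene Ero1lb, which makes disulfide bonds in beta cells, by 1.01 after a rise of 0.78 in females.

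The genes of the ATF4 and CHOP branch, which PERK and other kinases of eIF2 alpha induce, did not rise in NZO/HlLtJ females. Of 20 listed, 0 rose and 5 fell, where 9.37% of all genes rose and 7.83% fell. The median was -0.34, against -0.005 over all genes. Neither this list nor the secretory lists above were fitted again without the extreme female libraries. Atf5, a factor downstream of ATF4, fell by 1.15, from 237 to 327 CPM on 10% fat to 106 to 160 CPM on 44% fat (SE 0.19, adjusted p = 5.9e-05). The pseudokinase gene Trib3 fell by 1.39, Vldlr by 0.85, Sesn2 by 0.75 and Cebpg by 0.46. Ddit3, encoding CHOP, was at 23.4 ± 7.71 CPM (SD, n = 4) on 10% fat and 17.0 ± 6.05 CPM (SD, n = 4) on 44% fat and was not called, nor was Atf4 itself (-0.23, adjusted p = 0.358). In males 3 of the 20 fell (Atf5, Vldlr and Ddit4), which is near the 15.1% of all genes that fell there.

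In C57BL/6J and CAST/EiJ, edgeR called 0 of the 32 genes for diet in either sex. In C57BL/6J females 0% of all genes rose and 0% fell, in C57BL/6J males 0.0443% rose and 0% fell, in CAST/EiJ females 0.222% rose and 0.0345% fell, and in CAST/EiJ males 0.00492% moved each way, so a call was rare for any gene. At an unadjusted p under 0.05 the count was 0, 0, 3 and 0 of the 32 genes in these 4 groups, and DESeq2 and limma called 0 in each. Over all 20306 genes it was 658, 854, 2060 and 572, so the 3 in CAST/EiJ females are near the share of all genes there. They were Sel1l (-1.12), Edem2 (-0.48) and Xbp1 (-0.33). The group on 10% fat there included replicate 4, with 42.7% acinar counts, in which Sel1l was at 1040 CPM against 160 to 249 CPM in the other 3. For Hspa5, the 95% interval of the diet difference was -0.51 to 0.39 in C57BL/6J females and -0.57 to 0.33 in C57BL/6J males. The rise in NZO/HlLtJ females was 0.85, and 0.39 without their highest library on 44% fat and their lowest on 10% fat. The diet effects of the females of these strains were not compared by a test. Averaged over both sexes, 0 of the 5 chaperones were called for a difference in diet effect between NZO/HlLtJ and C57BL/6J. For Derl3, the interval was -1.19 to 0.16 in C57BL/6J females and -1.23 to 0.12 in CAST/EiJ females.

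The diet effect, averaged over both sexes, was compared between NZO/HlLtJ and C57BL/6J. It was larger in NZO/HlLtJ for 3 of the 32 genes and smaller for 0, where 9.67% of all genes had a larger and 9.12% a smaller value. The count is thus at the share of all genes. The 3 were Derl3 by 1.36 (SE 0.36, adjusted p = 0.00783), Edem2 by 0.79 (adjusted p = 0.0118) and Edem1 by 0.64 (adjusted p = 0.0349). Edem1 lost its call in 12 of the fits that left out 1 of the 30 libraries, whereas Derl3 and Edem2 kept theirs in all 30. This average joins female and male values that often differed, as for Derl3 with 2.40 and -0.08. In males, 27 of the 32 genes had a difference below 0 and 5 above. The male means of Edem1 and Edem2 were higher on 44% fat, at 240 against 210 CPM and 390 against 342 CPM, with neither called.

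On 10% fat, the islets of NZO/HlLtJ already held more of the folding transcripts than those of C57BL/6J. Averaged over both sexes, 21 of the 32 genes were higher and 0 lower, where 22.8% of all genes were higher and 21% lower, and the median was 0.44. Creld2 differed most, by 1.30 (SE 0.23, adjusted p = 2.18e-05), with group means of 65.3 and 71.5 CPM in C57BL/6J females and males and of 111 and 256 CPM in NZO/HlLtJ. Sdf2l1 was higher by 1.00, Edem2 by 0.94, Manf by 0.88, Derl3 by 0.88, Dnajb11 by 0.86 and Hspa5 by 0.79. All 4 disulfide isomerases (0.47 to 0.70) and both translocon genes were higher. Of the 15 fits that left out 1 library, the call was lost in 8 for Dnajb9, in 6 for Hsp90b1 and in 1 for Sec61b. None of Xbp1, Atf6, Ern1, Eif2ak3 and Wfs1 was called, the largest difference being 0.23 for Eif2ak3. For Derl3 the higher mean came from males. NZO/HlLtJ females on 10% fat had 13.6 CPM on average and C57BL/6J females 15.4 CPM, while males had 50.7 and 13.3 CPM. Other called genes also had a wider gap between the strains in males. Hsp90b1 was at 1620 against 1550 CPM in females and 2280 against 1560 CPM in males. For P4hb the means were 1380 against 1230 CPM and 2210 against 1190 CPM. The strain difference was not tested within each sex.

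Between CAST/EiJ and C57BL/6J on 10% fat, 4 genes were higher in CAST/EiJ (Derl3, Creld2, Dnajc10 and Sdf2l1) and 4 lower (Herpud1, Ern1, Eif2ak3 and Derl2), where 24.4% of all genes were higher and 23.6% lower, so the share of 32 called was below that of all genes. Ern1 was at 141, 176, 137 and 149 CPM in CAST/EiJ females and 156, 143 and 114 CPM in males, against 221, 272, 236 and 231 CPM and 241, 257, 246 and 254 CPM in C57BL/6J. No CAST/EiJ library on 10% fat reached a C57BL/6J library, and the difference was -0.77 (SE 0.09, adjusted p = 1.34e-09). Herpud1 was lower by -0.77 (SE 0.20, adjusted p = 0.00186), with 94.1 to 150 CPM in 6 libraries and 321 CPM in replicate 4 of the females. Eif2ak3 was lower by -0.41, a call lost without replicate 3 of the C57BL/6J females (adjusted p = 0.0606). The call for Sdf2l1 was lost in 4 of the 15 fits that left out 1 library (adjusted p up to 0.0863). Derl3 was higher by 0.95 (SE 0.25, adjusted p = 0.00201), with 50.9 CPM in that same replicate and 14 to 35.4 CPM in the other 6. Without the 3 libraries with over 20% acinar counts, a setting added after the data were seen, Creld2 (0.49, adjusted p = 0.0693) and Sdf2l1 (0.37, adjusted p = 0.131) lost their calls and 8 genes were lower. The sources do not state whether strain variants were allowed for during counting, and their part in these strain differences was not tested.

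**Figure D5:**
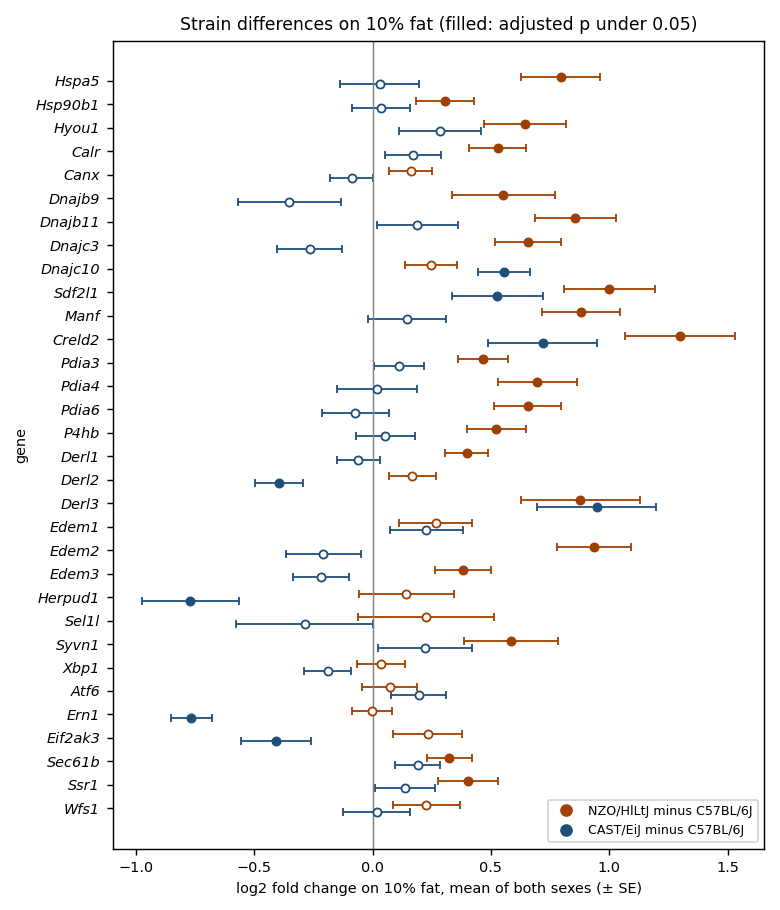
Strain differences of the 32 genes on 10% fat, averaged over both sexes, as log2 fold change ± SE against C57BL/6J; filled points had an adjusted p under 0.05. The NZO/HlLtJ points lie at or right of 0, with 21 filled, while the CAST/EiJ points scatter about 0, with Ern1 and Herpud1 at -0.77 and Derl3 at 0.95.

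Between NZO/HlLtJ and CAST/EiJ on 10% fat, 20 genes were higher in NZO/HlLtJ and 1 lower, where 27.6% of all genes were higher and 27.2% lower. Edem2 differed most, by 1.14 (SE 0.17, adjusted p = 2.91e-07), followed by Dnajc3 with 0.92, Herpud1 with 0.91 and Dnajb9 with 0.90. Ern1 (0.76) and Eif2ak3 (0.64) were higher as well, and Dnajc10 was the gene that was lower, by -0.31 (adjusted p = 0.022). This comparison shares its libraries with the previous 2 comparisons. Of the 14 fits that left out 1 library, the call was lost in 7 for Creld2 and for Sdf2l1, in 4 for Dnajc10 and in 2 for Calr and for Canx, at adjusted p of up to 0.149.

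The sexes of NZO/HlLtJ differed in opposite directions on the 2 diets, which share no libraries. On 10% fat 4 genes were higher in males and 0 lower, where 3.5% of all genes were higher and 2.94% lower. Derl3 was higher by 1.90 (SE 0.37, adjusted p = 0.00181), Creld2 by 1.21, Pdia6 by 0.77 and P4hb by 0.68. Without replicate 3 of the males on 10% fat, which was the highest of its group for 16 of the 32 genes, 0 of these calls remained. On 44% fat 15 genes were lower in males and 0 higher, where 17.7% of all genes were higher and 16.9% lower. Sdf2l1 (-0.84, SE 0.29, adjusted p = 0.0212) and Wfs1 (-0.84, SE 0.21, adjusted p = 0.00235) differed most, and all 5 chaperones were among the 15. Without replicate 3 of the males on 44% fat 0 of the 15 calls remained, and without replicate 2 of the females on 44% fat 4 did (Canx, Derl2, Pdia3 and Wfs1).

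Over the 12 groups, 26 of the 32 genes had their highest mean in NZO/HlLtJ females on 44% fat, a description that follows the comparisons above. The highest and lowest group means differed 6.64-fold for Derl3 and 5.36-fold for Creld2. For Canx they differed 1.42-fold and for Xbp1 1.54-fold. The SD of log2 CPM between libraries of a group, pooled over groups, ran from 0.17 for Canx and Ern1 to 0.54 for Sel1l.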

How the data were processed

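Bulk RNA-seq of mouse islets was analysed from the deposited matrix of estimated counts per gene, of which 23.6% were not whole, and which are not normalised. The authors also deposited variance-stabilised values on a log2 scale, and gene positions in an annotation whose build, GRCm38, is named in the submitters' processing notes together with DESeq2. For the aligner, the counting program and the use of strand, nothing is given in the sources used here. Counts were rounded and tested with edgeR 4.0.16 in R 4.3.3 (TMM factors 0.486 to 1.178, default expression filter over the 12 groups, robust quasi-likelihood fit of 1 model of 45 libraries). Depth was 57.2 to 110 M (median 84.4 M), so the 32 genes rested on 541 counts or more per library. No replicate pair agreed within sampling noise (smallest chi-square per degree of freedom 63.3). Replicate numbers follow accession order and pair nothing.

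The genes, pathway and marker lists, and tests were chosen with earlier results of these data known. Genes were named by rule if they were the 8 called genes with the largest NZO/HlLtJ diet or diet-by-sex change, the sensors, Hspa5 or Wfs1. The 2 largest calls per direction in other comparisons were also named. Values per library are given in NZO/HlLtJ females for the first genes, and in males for part of them. Some genes of the other comparisons have only differences, means or ranges. Further genes were named after their values were seen. Alternatives were other scalings, no filter, DESeq2 1.42.0, limma 3.58.1 on log2 CPM (prior count 2) and on the deposited log2 values, the number series and an acinar score as covariates, fits of single strains, and fits leaving out libraries. The edgeR step was tested on simulated data.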

Additional observations from a re-analysis of the deposited data

Results flagged for a closer look

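In NZO/HlLtJ females on 44% fat, replicate 2 was marked as standing apart from the other 3 libraries for 2 genes. These were Atf6 (241 CPM, against 208 to 212) and Wfs1 (252 CPM, against 184 to 189). The check sets the gap to the next library against the range of the 4, so a modest difference in level can be marked. Atf6 ran from 175 to 270 CPM in the females on 10% fat. The marks came from 2 of 35 checks of 4 libraries each, made for the named genes and for the summed level of the 32 genes. Chance alone would mark about 1 in 20 separate checks, but many of these checks share the same libraries. Replicate 2 was the highest of its group for 30 of the 32 genes.

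The diet effect differed between the sexes of NZO/HlLtJ, by edgeR's test of the interaction, for 16 genes, with males minus females as the sign. The values were -2.48 for Derl3, -1.91 for Creld2, -1.69 for Sdf2l1, -1.36 for Pdia6, -1.25 for Hspa5, -1.17 for Hyou1 and -1.16 for Dnajc3. They were -1.15 for Hsp90b1, -1.14 for Dnajb11, -1.13 for Pdia4, -1.11 for Manf, -1.04 for Calr, -1.02 for Pdia3, -1.0 for P4hb, -0.72 for Dnajc10 and -0.56 for Canx. With 1 library of the males on 44% fat left out, 4 of the 16 remained called. Within NZO/HlLtJ the diet-by-sex difference is also partly confounded with the number series.

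The diet effect also differed between NZO/HlLtJ and C57BL/6J, averaged over both sexes, for Derl3 (1.36), Edem2 (0.79) and Edem1 (0.64), each larger in NZO/HlLtJ. This is 3 of 32 genes, where 9.67% of all genes had a larger value, and Edem1 lost its call in 12 of the 30 fits that left out 1 library (adjusted p up to 0.0735).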

How the results depend on the processing

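No paired analysis was possible because the replicate numbers follow accession order. Of the counts of called genes, those for diet in C57BL/6J and CAST/EiJ, for diet by strain and for the 3 strain comparisons stayed within 1.5 times under every alternative that left out no single library. With library totals alone, which moved the median of all genes in NZO/HlLtJ females to -0.217, 8 genes were called in females, 1 in males, 3 for diet by sex, and 2 and 3 for sex on 10% and 44% fat. The median of the 32 genes above that of all genes remained 0.60 in females with library totals. It was 0.30 without the highest female library on 44% fat and the lowest on 10% fat. The number series gave 9 in males and 7 for sex on 10% fat, and DESeq2 gave 7 for the latter. Fits of single strains gave 12 for diet in NZO/HlLtJ females, 1 for diet by sex, and 1 and 7 for sex on 10% and 44% fat. Limma on the deposited values gave 9 for sex on 44% fat. Without the 5 libraries with transcripts of another strain, the counts were 0 in males, for diet by sex and for sex on 44% fat. Over all genes, the lower calls in these 3 comparisons then numbered 1222, 107 and 972. With all libraries they numbered 3067, 1133 and 3438. Without the highest and lowest female library they were 5 in females, 5 in males, 4 for diet by sex and 4 for sex on 44% fat. The causes were not tested.

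With each library left out in turn, the count ran from 10 to 19 for diet in NZO/HlLtJ females, 0 to 4 in males, 4 to 19 for diet by sex, 0 to 10 and 0 to 17 for sex on 10% and 44% fat, and 2 to 4 for diet by strain. It ran from 18 to 23 for NZO/HlLtJ against C57BL/6J, 7 to 12 for CAST/EiJ against C57BL/6J, 17 to 25 for NZO/HlLtJ against CAST/EiJ, and was 0 in each fit for diet in C57BL/6J and CAST/EiJ.

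Signs turned for genes that were not called. In NZO/HlLtJ females, library totals gave -0.08 for Xbp1, -0.08 for Eif2ak3 and -0.18 for Wfs1, and the number series gave 0.03 for Atf6. Without both extreme libraries Ern1 was 0.01, Eif2ak3 -0.17 and Wfs1 -0.26. With single libraries left out, the female values ran from -0.20 to 0.00 for Atf6, from -0.17 to 0.05 for Ern1, from -0.05 to 0.29 for Eif2ak3 and from -0.13 to 0.16 for Wfs1, and from -0.06 to 0.28 for Eif2ak3 in diet by sex. The 32 genes had at least 541 counts in each library.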
